A study of Mus musculus with 2 samples.

Results

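Stromal fibroblasts of mouse subcutaneous tumours were described by single-cell RNA sequencing, in which each captured RNA molecule is counted once through its unique molecular identifier (UMI). The members were chosen by their own expression values. Only barcodes with 500 UMIs or more, 300 detected genes or more and a mitochondrial share up to 20% were kept, and a member had Col3a1 at 20 or more per 10000 UMIs and at least 2 UMIs of Mfap5, Cxcl14 and Col5a2 together. Its UMIs of the tumour-cell genes Hmga2 and Rhox5 were under 10 per 10000, and it had none of Ptprc, the leukocyte antigen CD45, or of Cdh5, the endothelial cadherin. This left 173 fibroblasts of 34471 kept cells. They were 79 of 14159 in the library labelled CT, from tumours of mice on a control diet, and 94 of 20312 in the library labelled SG, from tumours of mice whose food lacked serine and glycine. With 1 library per diet, no difference between the diets has a replicate check. The tumour line, the mouse strain, sex and age, the length of the diet and the number of mice per library are not stated in any source used here, and the tissue protocol in the labels describes another tissue than the mouse tumour named elsewhere in them.

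Fibroblasts are the cells that lay down the interstitial matrix of a tissue, chiefly fibrillar collagens, elastic-fibre glycoproteins and proteoglycans, and that remodel it with proteases and their inhibitors. In tumours they are usually described along a range from contractile, matrix-depositing myofibroblasts, known for Acta2 and Tagln, to inflammatory cells that secrete chemokines, complement and acute-phase proteins. Pi16 and Dpp4 are known for a fibroblast of the adventitia of many organs and Col15a1 for one of the tissue parenchyma. Collagen is unusually rich in glycine, which cells can take up or make from serine.

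The label was checked on genes that the rule did not use. Of 20 core fibroblast genes, 18 were at least 4-fold higher in fibroblasts than in tumour cells of the same library in both libraries. Tumour cells were those without Ptprc and with at least 5 UMIs and 10 per 10000 of Hmga2 and Rhox5 (10029 and 12228 cells). Col1a1, a chain of type I collagen, was detected in 100% of fibroblasts. In CPM (its UMIs per 1e6 UMIs summed over the cells), it stood at 5469 in the CT library and 8159 in the SG library, against 21.5 and 29.6 CPM in tumour cells. In single fibroblasts it ran from 1.07 to 231 per 10000 UMIs in the CT library, with a median of 44.9, and from 2.99 to 393 in the other, with a median of 70.6. Every member therefore held Col1a1, with ranges that overlapped widely between the diets. Xist, the RNA that silences an X chromosome in female cells, was at 315 and 241 CPM in fibroblasts and at 2.09 and 2.90 CPM in tumour cells. Of the Y-linked genes, Uty, Eif2s3y and Kdm5d had no UMI in fibroblasts and at most 0.0228 CPM in tumour cells, and Ddx3y had 1 and 2 UMIs in fibroblasts.

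The genes that set membership have a spread of their own, given here only as a description. Col3a1, the fibrillar type III collagen (chromosome 1, 45311538-45349706, plus strand of GRCm38), had a median of 89.9 per 10000 UMIs in CT fibroblasts and 134 in the others. Its convergent neighbour Col5a2, a chain of type V collagen (chromosome 1, 45374321-45503282, minus strand), had medians of 15.7 and 17.0. Mfap5, a microfibril protein (chromosome 6, 122505845-122529290), had medians of 22.0 and 17.3. Cxcl14, a chemokine of skin and stroma (chromosome 13, 56288643-56296551), was the most uneven of these genes, with medians of 16.8 and 2.17, at least 1 UMI in 77.2% and 55.3% of cells, and up to 217 and 180 per 10000 in single cells. The member nearest to the Col3a1 threshold stood at 20.7 and 20.9, and the nearest cell outside at 19.2 and 18.6. For Hmga2 and Rhox5 the nearest members stood at 9.99 and 9.77 and the nearest cells outside at 10.4 and 10.1 per 10000. Cells that failed on Hmga2 and Rhox5 alone numbered 15 and 26, and cells that failed on Ptprc alone numbered 2 and 10.

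**Figure D1:**
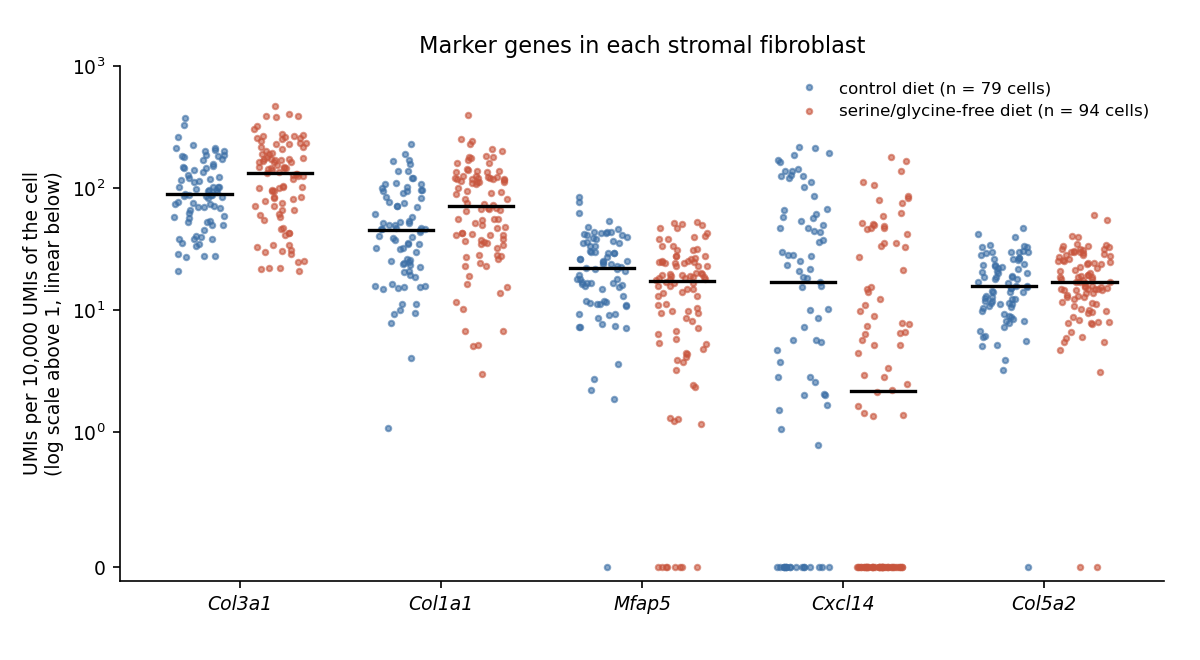
The 5 marker genes in every fibroblast, as UMIs per 10000 UMIs of the cell (log scale above 1, linear below). Each point is a cell, 79 from the CT library and 94 from the SG library, and bars are medians. Col3a1 and Col1a1 were present in every cell, and Cxcl14 spread from 0 to above 100 in both libraries.

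RNA of leukocytes and endothelium was low, and some tumour-cell RNA was present. Fibroblasts totalled 721582 and 634623 UMIs, with a median of 8345 and 6613 UMIs and 2942 and 2670 genes per cell. The 10 endothelial markers summed to 0.349% and 0.859% of their level in endothelial cells of the same library, and Pecam1 had no UMI. The 10 macrophage markers summed to 0.775% and 1.06% of their level in macrophages, with Adgre1 at 0 in both libraries, and 1 cell held 69.6% and 40.3% of these UMIs. The 9 lymphocyte markers summed to 0.255% and 1.05% of their level in T cells. The 10 tumour-cell genes that the rule did not use summed to 220 and 273 CPM, 27.0% and 46.7% of their tumour-cell level, and the median gene was at 4.88% and 9.69% of it. Most of these UMIs came from Gpr39 (141 and 97.7 CPM) and Cp (27.7 and 106 CPM), which fibroblasts held at levels near or above those of tumour cells (64.1 and 30.9 CPM, and 38.9 and 73.8 CPM), while Lgals7 stood at 19.4 and 25.2 CPM against 377 and 223 CPM. Rgs5, a pericyte gene, was found in 2 cells of each library, and the 2 CT cells held 33 UMIs of it. The membership rule excluded cells by no pericyte or smooth-muscle gene. Of 13 such genes listed, 12 had a UMI in CT fibroblasts and 11 in SG fibroblasts, and they summed to 424 and 457 CPM. Ndufa4l2 made up most of this, at 248 and 329 CPM. In 27 CT and 45 SG fibroblasts the list had no UMI. No reference level in pericytes was computed, so the part of pericyte RNA was not tested. Scrublet, which scores cells against artificial doublets, marked 2 members in each library. The libraries shared 87 cell barcodes, and no fibroblast barcode was among them. Because tumour-cell RNA was present, each diet ratio was also computed over the 32 CT and 47 SG fibroblasts with no UMI of Hmga2 or Rhox5, called the Hmga2- and Rhox5-free members from here on. This subset was defined after the data were seen and is shallower, with medians of 6783 and 5192 UMIs. Its ratios are given without UMI counts or intervals, and those of sparse genes may rest on few UMIs.

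Fibroblasts made up 0.558% of kept cells in the CT library (exact Clopper-Pearson 95% interval 0.442 to 0.695) and 0.463% in the SG library (0.374 to 0.566). The ratio of the shares was 0.829, and its counting interval of 0.608 to 1.13 includes equal shares. Relative to kept cells outside the tumour-cell rule, the shares were 1.91% (1.52 to 2.38) and 1.16% (0.941 to 1.42), a ratio of 0.608 (0.446 to 0.831). These denominators are 4130 and 8084 cells. The tumour-cell rule asks for a number of UMIs, and the SG library was shallower, with a median of 7570 UMIs per kept cell against 11512, so cells that miss it may still be tumour cells. Intervals here and below cover counting error only, not the variation between tumours. Those of CPM ratios count each UMI as independent, so they leave out the variation between cells as well.

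Set against tumour cells of the same library, fibroblasts held more RNA of many secreted matrix genes. Of 7948 genes compared, 782 were at least 4-fold higher in fibroblasts in both libraries (9.84%) and 210 at least 4-fold lower in both (2.64%). Members were chosen by genes of these same cells, so this is a description without a test. By list, 8 of 8 fibrillar collagens, 8 of 8 FACIT and beaded-filament collagens, 21 of 22 matricellular and adhesive genes, 23 of 26 proteases and inhibitors, 12 of 14 inflammatory genes and 10 of 10 complement genes were on the higher side. The fibrillar collagens include Col3a1 and Col5a2, which set membership, so that count was in part fixed by the rule. The lists of elastic fibre (12 of 16), collagen processing (15 of 26) and network and basement membrane (9 of 15, with 2 lower) had fewer. None of 20 ATF4 targets, 0 of 28 proliferation genes and 3 of 29 genes induced by interferon gamma were. By the smaller of the log2 ratios in the 2 libraries, the leading genes included Cilp, a cartilage-type matrix protein (10.68 in CT and 10.24 in SG), and Lrrc15, a membrane protein known from tumour myofibroblasts (10.18 and 10.55). Mfap4, an elastic-fibre protein, followed at 10.74 and 10.02, and Sfrp2, a secreted Wnt modulator, at 9.49 and 9.85. Postn, the matricellular protein periostin, was at 9.95 and 9.41, and Has2, a hyaluronan synthase, at 9.57 and 9.40. The other 14 of these 20 genes were Vgll3, Cyp1b1, Pcsk5, Sod3, Sfrp1, Adamts5, Cthrc1, Fndc1, Serpina3n, Tagln, Adamtsl1, Mfap2, Crabp1 and Ncam1, all between 9.23 and 10.24 in both libraries. The 10 lowest included Itga6, an integrin chain of laminin receptors (-4.26 and -4.19), Cdh13, a cadherin without a cytoplasmic tail (-4.14 and -3.82), Unc13c (-4.18 and -4.38) and Ndst3, a heparan sulphate sulphotransferase (-4.26 and -5.17).

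Between the diets, fibroblasts of the SG library had more RNA of most measured inflammatory, complement and interferon-gamma-induced genes and less of Spp1, Fn1, Tagln, Tpm2 and Acta2. UMIs were summed over the fibroblasts of a library, and the ratio of CPM (SG over CT, log2) is given with its exact 95% counting interval. Among the 2443 genes with at least 100 UMIs over both libraries, 166 were at least 1.5-fold higher (6.79%) and 111 at least 1.5-fold lower (4.54%), and the median ratio of all 2443 was 0.01. List counts below are read against these shares: the 2 of 20 core fibroblast genes that were higher, Mgp and Gsn, with 0 lower and a list median of 0.10, are near them. Over the same 2443 genes, tumour cells had 130 at least 1.5-fold higher and 57 at least 1.5-fold lower. Against these numbers, tumour cells shared the fibroblast call more often, for 54 of the 166 and 16 of the 111. They had the opposite call for 4 and 6, about as often as over all genes measured. Their median ratio over the genes called higher in fibroblasts was 0.29. Ribosomal-protein genes took 15.4% and 13.4% of fibroblast UMIs, and 21.7% and 20.0% of tumour-cell UMIs. With ribosomal-protein and mitochondrial genes left out of the totals, 153 genes were higher and 132 lower.

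**Figure D2:**
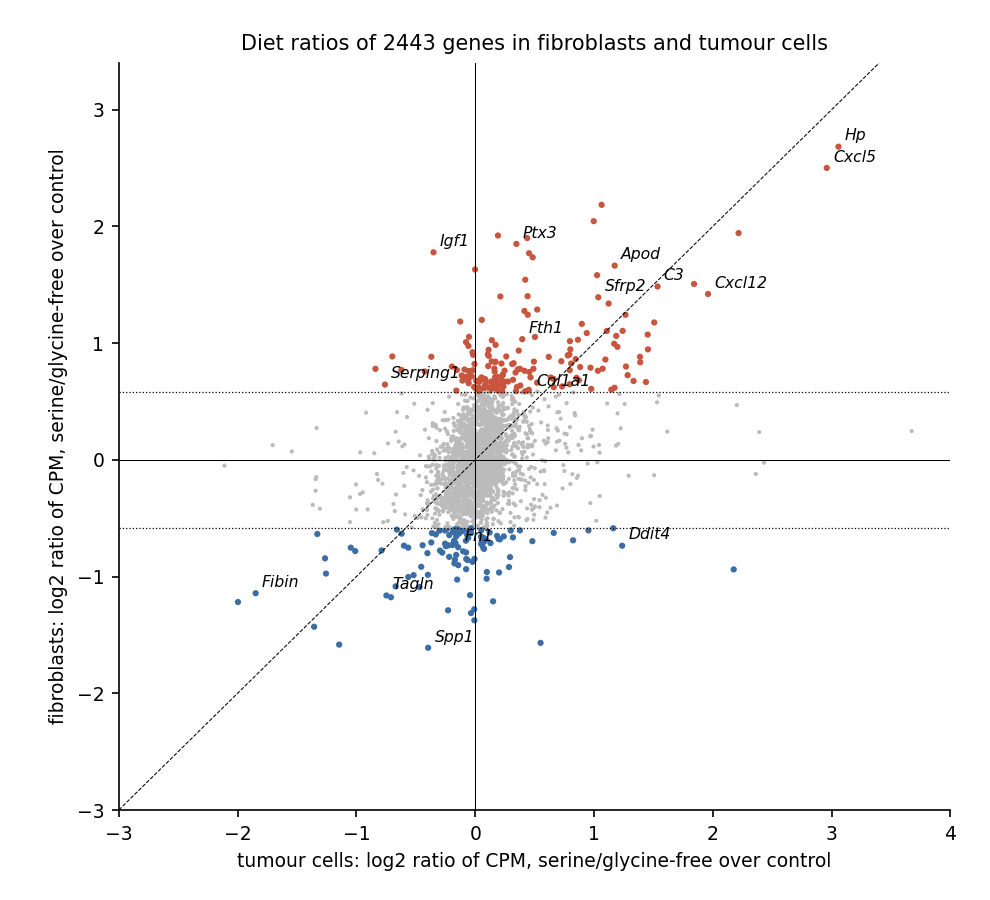
Log2 ratio of CPM, SG over CT, for 2443 genes in fibroblasts (vertical axis) against tumour cells (horizontal axis). Dotted lines mark 1.5-fold, the dashed line equal ratios, red points genes called higher and blue points genes called lower in fibroblasts. Igf1 and Ptx3 stood high in fibroblasts with tumour-cell ratios of -0.35 and 0.35, while Hp and Cxcl5 lay near the line of equal ratios.

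The collagen genes together made up 3.08% of fibroblast UMIs in CT and 3.93% in SG, against 0.113% and 0.121% of tumour-cell UMIs. These totals include Col3a1 and Col5a2, so the gap to tumour cells was in part set by the rule. None of the 6 fibrillar collagens measured passed 1.5-fold, 5 of 6 were above 0, and their median was 0.34, with Col3a1 and Col5a2 among them, which the rule used. Col1a1 was at 5469 and 8159 CPM (0.58, 0.52 to 0.64) and Col1a2, the other chain of type I collagen, at 6574 and 9639 CPM (0.55, 0.50 to 0.61). Both stood just under the threshold, which Col1a1 passed in 4 of 20 alternative settings (up to 0.61) and Col1a2 in 2 of 20 (up to 0.63). Col3a1 was at 9895 and 13244 CPM. Col5a1, a chain of type V collagen, was at 0.26 (0.09 to 0.43), and Col5a3 was the exception at -0.37 (-0.59 to -0.16). Among the 7 FACIT and beaded-filament collagens, which sit on fibrils or cell surfaces, the transmembrane collagen Col23a1 was lower (173 and 85.1 CPM, -1.03, -1.51 to -0.55). Col12a1, a fibril-associated collagen, was at 1039 and 728 CPM (-0.51, -0.68 to -0.34). Of 10 network and basement-membrane genes 1 was lower, Col15a1, a proteoglycan collagen of basement-membrane zones, at 535 and 345 CPM (-0.63, -0.88 to -0.39). That call was lost in the Hmga2- and Rhox5-free members, where Col15a1 stood at 0.21, and with each cell weighted equally, where it stood at -0.25.

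Genes that process and crosslink collagen had a median of -0.02 over 23 members, of which 2 were higher and 0 lower. Lox, which crosslinks collagen and elastin, was at 692 CPM in the CT library and 1188 in the SG library (0.78, 0.62 to 0.95), and at 0.48 with cells weighted equally. Serpinh1, the collagen chaperone HSP47, was at 1190 and 1054 CPM (-0.18, -0.32 to -0.03). Sec23a, a coat protein of the vesicles that export procollagen, was the other higher member (0.59, 0.05 to 1.14), and stood at 0.02 in the Hmga2- and Rhox5-free members. The 14 elastic-fibre genes had a median of 0.04, with 1 higher, Ltbp2, a fibrillin-binding protein (154 and 260 CPM, 0.76, 0.40 to 1.12, and 0.56 with Hmga2 and Rhox5 under 20 per 10000). The 13 proteoglycan genes had 4 higher and 2 lower. Ogn, the small leucine-rich proteoglycan osteoglycin, was at 41.6 and 125 CPM (1.58, 0.96 to 2.24), and at 0.31 in the Hmga2- and Rhox5-free members, with 1.03 in tumour cells. Podn, another of this family, was at 52.7 and 107 CPM (1.02, 0.43 to 1.64). Sdc1, the heparan sulphate proteoglycan syndecan 1, was the lowest of the list at 554 and 262 CPM (-1.08, -1.35 to -0.82).

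Spp1 had the lowest ratio of the matricellular list. It encodes osteopontin, a secreted adhesive phosphoprotein. It stood at 17104 CPM in CT fibroblasts and 5602 in SG fibroblasts (-1.61, -1.66 to -1.56). Tumour cells held Spp1 too, at 10550 and 8020 CPM (-0.40), so that fibroblasts were above tumour cells in the CT library and below them in the other. The fibroblast ratio was between -1.69 and -1.52 under 20 alternative settings, and -1.66 in the Hmga2- and Rhox5-free members. Fn1, fibronectin, was at 4655 and 2770 CPM (-0.75, -0.83 to -0.67) against -0.14 in tumour cells, and at -0.53 with Hmga2 and Rhox5 under 5 per 10000. Thbs4, a thrombospondin, was at 165 and 70.9 CPM (-1.22, -1.75 to -0.71). Spp1, Fn1 and Thbs4 were the 3 lower members of 18 matricellular and adhesive genes. The 2 higher ones were Svep1, a large adhesion protein of stromal cells (191 and 344 CPM, 0.84, 0.53 to 1.16), and Ccn5, a CCN family protein (112 and 191 CPM, 0.76, 0.35 to 1.19), which stood at 0.47 in the Hmga2- and Rhox5-free members and at 0.52 with cells weighted equally. The list median was -0.10.

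Of 19 proteases and inhibitors, 0 were higher and 3 lower, with a median of -0.30. Plaur, the urokinase receptor, was at 155 and 93.0 CPM (-0.74, -1.22 to -0.27), and Serpine2, an inhibitor of thrombin and urokinase, at 188 and 121 CPM (-0.64, -1.06 to -0.22). Timp3, a matrix-bound metalloprotease inhibitor, was at 843 and 507 CPM (-0.73, -0.93 to -0.53). In the Hmga2- and Rhox5-free members these genes stood at -0.19, -0.37 and 0.08, so none kept its call there. Timp1, a soluble inhibitor of the same family, was at 5926 and 4122 CPM (-0.52, -0.59 to -0.45) and at -0.74 in tumour cells.

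Tagln, Tpm2 and Acta2 were lower in the SG library. Of 12 myofibroblast genes measured they were the 3 lower members, with 0 higher, 3 of 12 were above 0, and the median was -0.37, against 0.24 for the same genes in tumour cells. Tagln, the actin-binding protein SM22, was at 868 and 388 CPM (-1.16, -1.38 to -0.95). Tpm2, a tropomyosin, was at 434 and 222 CPM (-0.97, -1.26 to -0.67). Acta2, smooth-muscle actin, was at 644 and 407 CPM (-0.66, -0.89 to -0.44). In the Hmga2- and Rhox5-free members the ratios of the 3 genes were -2.02, -1.46 and -1.24. Other genes of actin filaments did not pass 1.5-fold: Tpm1, another tropomyosin, was at 0.07, Cnn2, a calponin, at -0.28 and Cald1, caldesmon, at -0.33. Of the secreted matrix genes on the list, Postn was at 0.15 and Cthrc1, a protein of matrix-depositing fibroblasts, at 0.22, while Thbs2, a thrombospondin, stood at -0.52, Col12a1 at -0.51 and Tnc, tenascin C, at -0.41. None of these 5 passed 1.5-fold either. Tumour-cell levels of Tagln, Acta2, Postn and Cthrc1 were at most 1.63 CPM in either library.

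Since depth per cell differed, shares of cells with a UMI were also counted after thinning each cell to 2000 UMIs, which left out 1 CT and 6 SG fibroblasts. Tagln was found in 38.5% of CT fibroblasts (27.7 to 50.2) and 15.9% of the others (8.98 to 25.3), against 54.4% and 29.8% before thinning. Acta2 was found in 34.6% (24.2 to 46.2) and 19.3% (11.7 to 29.1), and Col15a1 in 61.5% (49.8 to 72.3) and 35.2% (25.3 to 46.1). These intervals count the cells of 1 library per diet, so neither their overlap nor their separation tests the diets. They overlapped for Acta2 and not for Tagln or Col15a1 at this depth. Thinned to 1000 UMIs they overlapped for both, with Tagln in 26.9% (17.5 to 38.2) and 13.8% (7.57 to 22.5) and Col15a1 in 38.5% (27.7 to 50.2) and 27.7% (18.9 to 37.9). The opposite order was seen for Cxcl12, with 39.7% (28.8 to 51.5) and 69.3% (58.6 to 78.7), and for C3, with 32.1% (21.9 to 43.6) and 63.6% (52.7 to 73.6). For Cxcl12 and C3 the intervals stayed apart at 1000 UMIs too. Postn was found in 60.3% and 71.6% and Pi16 in 12.8% and 19.3%, and Dpp4 in 3.85% and 12.5%, all with overlapping intervals. Tumour cells thinned alike had Tagln, Acta2, Col15a1 and Postn in at most 0.213% of cells, and C3 in 1.53% and 3.65%. Il6, an inflammatory cytokine, was found in 7 of 79 CT fibroblasts and 13 of 94 others (8.86% and 13.8%), and after thinning it was too sparse to compare.

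Of 7 adventitial genes measured none passed 1.5-fold in either direction, with a median of 0.07. Of 6 parenchymal genes 2 were higher, Cxcl12 and Mgp, and 1 lower, Col15a1, with a median of 0.34.

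**Figure D3:**
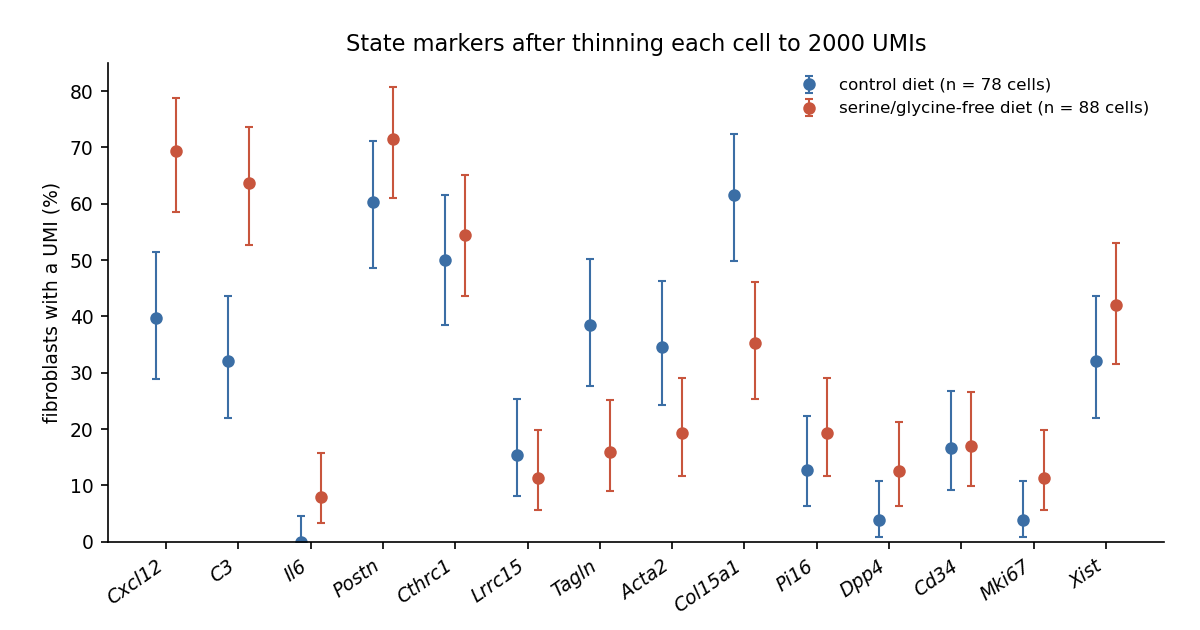
Share of fibroblasts with at least 1 UMI of each state marker after thinning to 2000 UMIs per cell (78 CT and 88 SG cells), with exact 95% binomial intervals. The intervals count cells of 1 library per diet and do not test the diets. Cxcl12 and C3 were found in more cells of the SG library and Tagln and Col15a1 in fewer, with intervals that do not overlap at this depth, whereas at 1000 UMIs those of Tagln and Col15a1 do.

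The list of inflammatory-fibroblast genes stood highest of all lists with at least 6 members measured. Of 11 measured, 9 were higher, 0 lower and 11 of 11 above 0, with a median of 1.06 that ranged from 0.80 to 1.42 under 20 alternatives. Cxcl5, a neutrophil attractant, was at 137 and 777 CPM (2.5, 2.19 to 2.83) and was found in 20 and 47 cells. Ptx3, the soluble pattern-recognition protein pentraxin 3, was at 81.8 and 295 CPM (1.85, 1.42 to 2.30), with 1.18 where Hmga2 and Rhox5 were under 20 per 10000. Saa3, an acute-phase serum amyloid, was at 274 and 780 CPM (1.51, 1.27 to 1.75), with 54.0% of the CT UMIs in 1 cell, and at 2.36 without the richest cell of each library. Hp, the acute-phase protein haptoglobin, which belonged to no list, had the highest ratio of the genes named by rank (47.1 and 303 CPM, 2.68, 2.15 to 3.25) and was found in 11 and 22 cells. Hp, Cxcl5 and Saa3 were thus found in at most 47 of 94 SG cells. In tumour cells, Hp stood at 0.407 and 3.39 CPM, Cxcl5 at 0.379 and 2.95 CPM and Saa3 at 0.572 and 2.05 CPM, far below the fibroblasts but with ratios of 3.06, 2.96 and 1.84. The part of tumour-cell or shared RNA in the fibroblast ratios was not tested.

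Chemokines and complement were mostly higher too, on lists that share genes with the inflammatory list. Cxcl1, Cxcl12, C3 and Cfb are among the shared genes, so the counts of these lists are not independent. Of 12 chemokines and cytokines, 8 were higher and 1 lower, with a median of 0.80. The chemokine Cxcl14, which the rule used, is not among the 12. It went the other way, with a median per 10000 UMIs of 16.8 in CT and 2.17 in SG fibroblasts. Cxcl12, the ligand of CXCR4 and a retention signal for leukocytes, was at 499 and 1336 CPM (1.42, 1.24 to 1.6), was detected in 72.2% and 86.2% of cells and kept a ratio of at least 1.35 in every alternative. Ccl11, the eosinophil attractant eotaxin, was at 392 and 782 CPM (0.99, 0.78 to 1.21). Cxcl1, a neutrophil attractant, was at 92.9 and 194 CPM (1.06, 0.62 to 1.51), but tumour cells held 29.8 and 67.8 CPM with a like ratio of 1.19. Cxcl9, which attracts CXCR3-bearing lymphocytes, was at 338 and 604 CPM (0.84, 0.60 to 1.07). The lower member was Il11, a cytokine of the IL-6 family, at 380 and 153 CPM (-1.31, -1.66 to -0.97), with 47.8% and 34.0% of its UMIs in 1 cell. Il11 changed sign with the limit on Hmga2 and Rhox5: it was at 0.74 with the limit at 5 per 10000 and at 2.66 in the Hmga2- and Rhox5-free members, so its direction depended on that limit.

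Of 8 complement genes, 6 were higher, 0 lower and 8 of 8 above 0, with a median of 0.77. That median ranged from 0.22 to 0.90 under 20 alternatives. C3, the central component, was at 303 and 849 CPM (1.48, 1.25 to 1.72). C1ra and C1s1, the proteases of the C1 complex, were at 115 and 244 CPM (1.09, 0.69 to 1.49) and at 166 and 295 CPM (0.83, 0.49 to 1.17). Cfb, the protease of the alternative pathway, was at 182 and 310 CPM (0.77, 0.45 to 1.10). Serping1, the inhibitor of C1, was at 805 and 1259 CPM (0.64, 0.49 to 0.80), while the same gene was lower in tumour cells (41.1 and 24.3 CPM, -0.76). With Hmga2 and Rhox5 under 20 per 10000, Cfb stood at 0.57 and Serping1 at 0.56, just under the threshold.

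Genes induced by interferon gamma, MHC class I included, were higher as a group: 12 of 18 measured were higher, 0 lower, and 18 of 18 above 0. The median was 0.74, against 0.39 for the same genes in tumour cells. Gbp4, a guanylate-binding protein, was at 40.2 and 183 CPM (2.19, 1.59 to 2.83). Its ratio was 4.64 in the Hmga2- and Rhox5-free members, where it may rest on few CT UMIs. Igtp, an interferon-inducible GTPase, was at 48.5 and 109 CPM (1.16, 0.56 to 1.80), with 2.04 in the Hmga2- and Rhox5-free members. Psmb8 and Psmb9, subunits of the immunoproteasome, were at 298 and 526 CPM (0.82) and at 118 and 211 CPM (0.84). The 8 genes of the type I interferon list had 1 higher and 1 lower, with a median of 0.20: Ly6a was at 1229 and 1886 CPM (0.62, 0.49 to 0.74) and Isg15, a ubiquitin-like modifier, at 173 and 110 CPM (-0.65, -1.10 to -0.22). In the Hmga2- and Rhox5-free members Ly6a was at 0.43 and Isg15 at -1.96. Of the 9 genes of antigen-presenting fibroblasts, only Cd74 and Slpi had 100 UMIs. Cd74, the MHC class II chaperone, was at 51.3 and 110 CPM (1.11, 0.51 to 1.72), with 78.4% of the CT UMIs in 1 cell. It was found after thinning in 3.85% and 9.09% of fibroblasts, against 6.19% and 10.8% of tumour cells, so these shares do not separate it from free RNA. H2-Ab1, an MHC class II chain, was found in 8.97% (3.69 to 17.6) and 17.1% (9.87 to 26.6) of fibroblasts and in 1.13% and 4.10% of tumour cells. Macrophages thinned alike had it in 44.8% and 75.5% of cells. The part of macrophage RNA in the fibroblast shares was not tested.

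**Figure D4:**
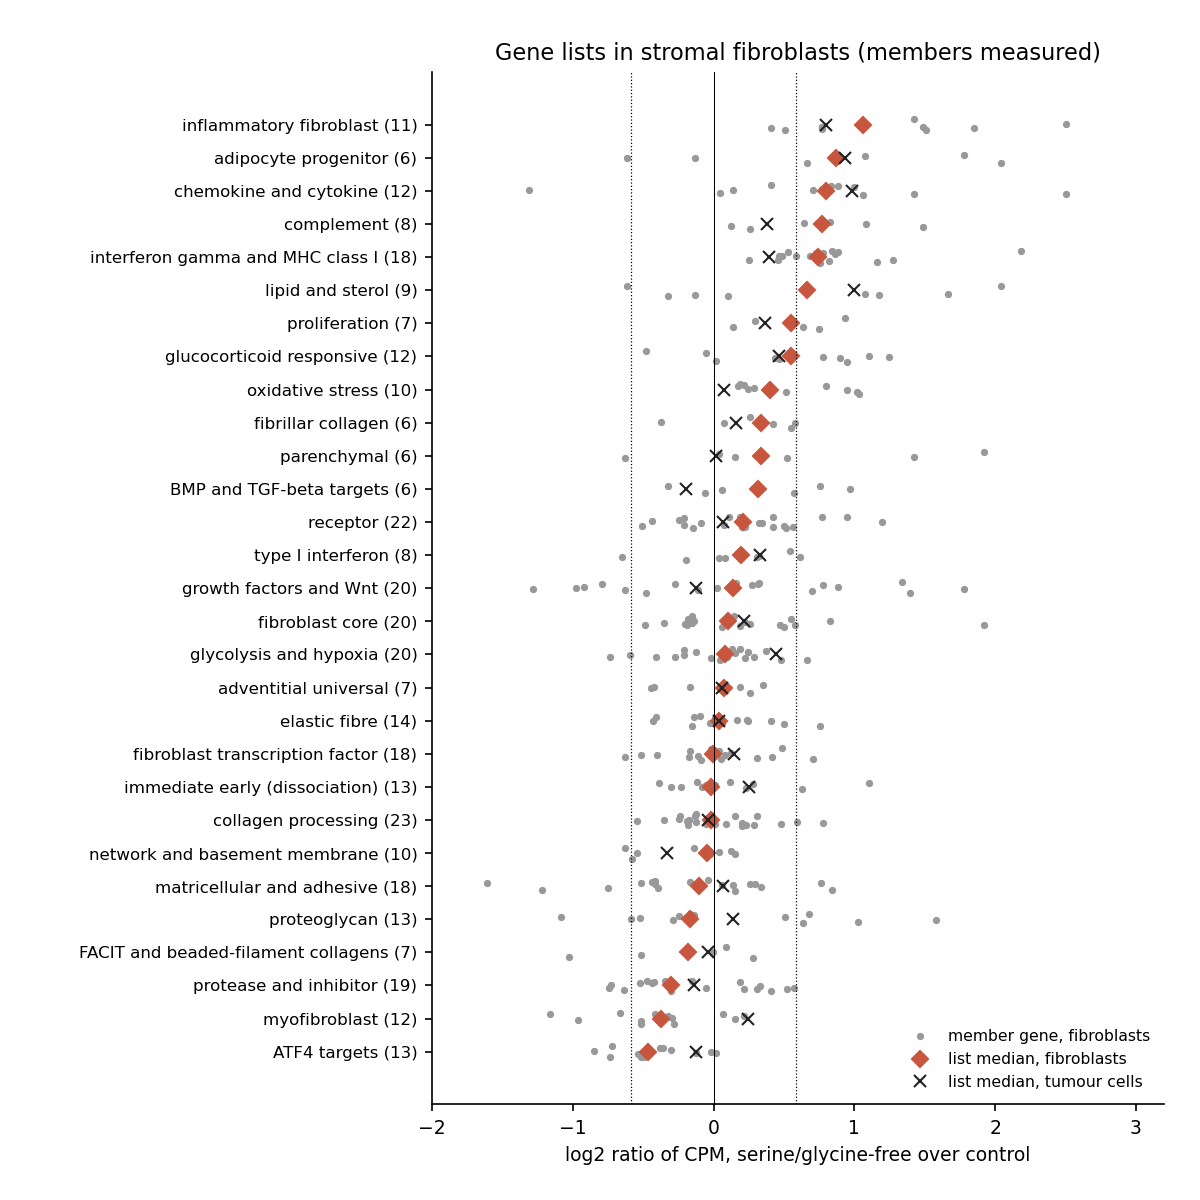
Gene lists in fibroblasts as log2 ratio of CPM, SG over CT. Grey points are the member genes with at least 100 UMIs (their number in brackets), diamonds the list medians, crosses the medians of the same genes in tumour cells, and dotted lines 1.5-fold. The inflammatory list stood at 1.06 and the ATF4 list at -0.47, on opposite sides of 0.

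Growth factors and Wnt regulators split in both directions, with 6 higher and 5 lower of 20 and a median of 0.14. Igf1, insulin-like growth factor 1, was at 88.7 and 304 CPM (1.78, 1.36 to 2.21) and at 0.717 and 0.562 CPM in tumour cells (-0.35). Sfrp2 was at 358 and 939 CPM (1.39, 1.18 to 1.61), and at 0.55 in the Hmga2- and Rhox5-free members. Fgf10, an epithelial growth factor, was at 55.4 and 140 CPM (1.34, 0.79 to 1.92), with 3.17 in the Hmga2- and Rhox5-free members, and tumour cells held 30.0 and 65.3 CPM of it. On the lower side, Inhba, the activin A subunit, was at 513 and 211 CPM (-1.28, -1.58 to -0.99) with 30.3% and 21.6% of its UMIs in 1 cell, and stood at 0.61 in the Hmga2- and Rhox5-free members. Wnt5a, a non-canonical Wnt ligand, was at 140 and 74.1 CPM (-0.92, -1.45 to -0.41), and stood at -0.55 without the cells marked by Scrublet. Igfbp5, an IGF-binding protein, was at 146 and 74.1 CPM (-0.97, -1.50 to -0.47) with 49.5% of the CT UMIs in 1 cell, at -0.29 without the richest cell of each library and at -1.90 in the Hmga2- and Rhox5-free members.

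Receptors and transcription factors differed less. Of 22 receptors, 3 were higher and 0 lower, with a median of 0.21. Il1r1, the interleukin 1 receptor, was at 270 and 460 CPM (0.77, 0.50 to 1.04) against 43.6 and 43.0 CPM in tumour cells. Osmr, the oncostatin M receptor, was at 327 and 230 CPM (-0.51, -0.82 to -0.20). Itgbl1, an integrin-like secreted protein on this list, was at 1.20 (0.71 to 1.71) but was expressed more in tumour cells (398 and 414 CPM) and stood at -1.04 in the Hmga2- and Rhox5-free members. Of 18 fibroblast transcription factors 1 was higher, Nfib (0.71, 0.31 to 1.11, and 0.57 with Hmga2 and Rhox5 under 20 per 10000), and 1 lower, Ebf2, a regulator of mesenchymal progenitors (-0.63, -1.12 to -0.14, and -1.72 in the Hmga2- and Rhox5-free members), with a median of -0.01. Of 6 targets of BMP and TGF-beta, 2 were higher, among them Id3, a BMP-induced inhibitor of transcription factors (59.6 and 117 CPM, 0.97, 0.41 to 1.55), and tumour cells had a ratio of 1.20 for it.

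The ATF4 targets, which are induced when amino acids are scarce, had the lowest median of all lists with at least 6 members measured. Of 13 measured, 0 were higher and 3 lower, 1 of 13 was above 0, and the median was -0.47, against -0.12 in tumour cells. Asns, asparagine synthetase, was at 116 and 64.6 CPM (-0.85, -1.43 to -0.29). Sars, the seryl-tRNA synthetase, was at 140 and 85.1 CPM (-0.72, -1.22 to -0.23). Ddit4, an inhibitor of mTORC1, was at 123 and 74.1 CPM (-0.74, -1.28 to -0.21), whereas in tumour cells it was at 9.17 and 21.6 CPM (1.24). The values moved with the choice of cells: in the Hmga2- and Rhox5-free members its median was -0.05, Asns stood at -1.52, Sars at -0.19 and Ddit4 at 0.35. Of these 3 genes, Asns alone kept its call there.

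Genes of serine synthesis and one-carbon metabolism were too sparse to compare, with 3 of 26 reaching 100 UMIs. Of these Slc1a5, a neutral amino acid transporter, was lower (88.7 and 58.3 CPM, -0.61, -1.23 to 0.00) with an interval that reaches 0. Slc38a2, another, was at 168 and 156 CPM, and Gcsh, of the glycine cleavage system, at 73.5 and 96.1 CPM. Phgdh, the first enzyme of serine synthesis, had 38 and 25 UMIs in fibroblasts (52.7 and 39.4 CPM), against 296 CPM in tumour cells of both libraries. Glycolysis and hypoxia genes had a median of 0.08 over 20 members in fibroblasts and 0.45 in tumour cells, with 1 higher and 2 lower. Gapdh, for example, was at 1968 and 2335 CPM (0.25, 0.14 to 0.35) in fibroblasts and at 0.46 in tumour cells.

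The 10 oxidative-stress genes were all above 0, with 4 higher and a median of 0.40, against 0.08 in tumour cells. Fth1, the heavy chain of the iron store ferritin, was at 3393 and 6947 CPM (1.03, 0.96 to 1.11), while tumour cells were at 6543 and 8610 CPM (0.40). Sod3, the extracellular superoxide dismutase, was at 126 and 255 CPM (1.02, 0.64 to 1.40), and Gpx3, a secreted glutathione peroxidase, at 177 and 342 CPM (0.95, 0.63 to 1.27, and 0.58 in the Hmga2- and Rhox5-free members). Prdx6, a peroxiredoxin, was at 319 and 555 CPM (0.80, 0.56 to 1.05), with -0.20 in tumour cells. Of lipid genes 5 of 9 were higher and 1 lower. Apod, a lipocalin, was at 84.5 and 268 CPM (1.66, 1.23 to 2.11), and Lpl, lipoprotein lipase, at 212 and 446 CPM (1.07, 0.78 to 1.37, and 1.84 in the Hmga2- and Rhox5-free members). Fabp4, a fatty acid carrier of adipocytes and endothelium, was at 85.9 and 355 CPM (2.05), but 1 cell held 84% of its SG UMIs, and without the richest cell of each library the ratio was 0.70. Mgp, a calcification inhibitor of the core list, likewise had 63.2% of its UMIs in 1 cell (1.92, and 1.01 without the richest cells). Cyp1b1, a cytochrome P450 of mesenchymal cells, was at 118 and 266 CPM (1.18, 0.79 to 1.57).

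Glucocorticoid-responsive genes had 5 higher and 0 lower of 12, with a median of 0.55 in fibroblasts and 0.46 in tumour cells. Sgk1, a kinase, was at 67.9 and 161 CPM (1.24, 0.74 to 1.77), with 1.27 in tumour cells, and Dusp1, a MAP kinase phosphatase, at 101 and 218 CPM (1.10, 0.68 to 1.53), with 1.11. Immediate-early genes, which tissue digestion can induce, had a median of -0.02 over 13 members, with 2 higher. Of 7 proliferation genes measured 3 were higher, and 7 of 7 were above 0. Mki67 was found after thinning in 3.85% (0.800 to 10.8) and 11.4% (5.59 to 19.9) of fibroblasts, intervals that overlap. Tumour cells had Mki67 in 16.6% and 21.4% of cells.

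The remaining genes named by rank were on no list discussed above. Hdac9, a histone deacetylase, was at 98.4 and 260 CPM (1.40, 0.99 to 1.82, and 2.93 in the Hmga2- and Rhox5-free members). On the lower side, Fibin, a secreted protein, was at 341 and 154 CPM (-1.14, -1.50 to -0.80), and Lsp1, an actin-binding protein, at 245 and 126 CPM (-0.96, -1.36 to -0.57). Pla1a, a phospholipase, was at 394 and 218 CPM (-0.86, -1.16 to -0.56, and -0.58 in the Hmga2- and Rhox5-free members), and Crabp1, a retinoic-acid-binding protein, at 298 and 173 CPM (-0.78, -1.13 to -0.44). Spon1, a secreted adhesive protein, was at 571 and 303 CPM (-0.92, -1.17 to -0.67) and at 0.05 in the Hmga2- and Rhox5-free members. AY036118 was lower in fibroblasts (263 and 97.7 CPM, -1.43) and in tumour cells (-1.36).

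Fibroblasts also differed among themselves. Leiden clustering of all 173 cells gave 8 clusters of 14 to 26 cells, described here by their leading genes only. Cluster 2 was myofibroblast-like, led by C1qtnf3, Ptn, Myl9, Aspn, Col11a1 and Acta2, with Acta2 at 1952 CPM against 268 CPM in the other fibroblasts. It also held 33 CT and 12 SG UMIs of the pericyte gene Rgs5, and the part of pericyte RNA in it was not tested. Cluster 7 was adventitial-like, led by Pi16, Sema3c, Igfbp5 and Clec3b, with Pi16 in 100% of its cells at 2544 CPM against 80.9 CPM elsewhere. Cluster 8 was led by Ube2c, Cenpf, Prc1 and Mki67, genes of mitosis. Cluster 1 was led by Serpinb2 and Nos2, cluster 3 by Ctla2a, Apoe, Gas6 and Lpl, and cluster 6 by Inhba, Il11 and Ereg. Cluster 5 was led by Lyz2, a macrophage gene, with Ccl2, Cxcl9, Hp and Cxcl10, the MHC class II genes H2-Aa, H2-Eb1, H2-DMa and Cd74, and the protease gene Ctss, and cluster 4 by the tumour gene Rhox5, and these 2 were also given no name. The number of clusters depended on the resolution: 5 at 0.5, 8 at 1 and 11 at 1.5. Cluster sizes were not compared between diets, because several leading genes, such as Inhba and Hp, themselves differed between the libraries, and several clusters came mostly from 1 library. Cluster 6 held 18 CT and 2 SG cells, cluster 5 held 3 and 20, and cluster 3 held 5 and 20. Cluster 5 held 132 of the 192 SG UMIs of Hp and 57 SG UMIs of Gbp4.

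Within clusters some genes kept the sign of their diet ratio and others did not, over clusters with at least 10 UMIs of the gene and with UMIs in both libraries. Fth1 was above 0 in 8 of 8 clusters (0.30 to 1.32), Cxcl5 in 6 of 6 (0.48 to 4.13) and Igf1 in 5 of 5 (0.98 to 2.39). Fn1 was below 0 in 8 of 8 (-1.15 to -0.00) and Sdc1 in 7 of 7 (-2.18 to -0.39). Spp1 was below 0 in 7 of 8, the exception being the Pi16-led cluster, where it was low in both libraries (288 and 732 CPM). Cxcl12 was above 0 in 6 of 8 and C3 in 7 of 8. Tagln was below 0 in 5 of 6. In the myofibroblast-like cluster Acta2 stood at 2133 and 1676 CPM (-0.35) and Tagln at 2118 and 1157 CPM (-0.87). Acta2 went the other way in cluster 5 (4 and 33 UMIs, 1.17) and cluster 8 (30 and 47 UMIs, 0.60). Inhba was above 0 in clusters 1 (0.80), 2 (1.02), 5 (1.71) and 8 (0.58). It was at -0.48 in cluster 4 (11 and 5 UMIs) and at -2.50 in cluster 6, which held 296 of its CT UMIs. Saa3 was at 4.29 in cluster 1 (6 and 138 UMIs) and at -3.08 in cluster 4 (107 and 8 UMIs). The CT UMIs of Saa3 in cluster 4 came from 1 cell, so that value describes 1 CT cell. Timp3 was at 2.14 in cluster 1 and at -2.62 in cluster 2. In the Pi16-led cluster C3 stood at 1115 and 1025 CPM and Cxcl12 at 306 and 73.2 CPM. This Cxcl12 ratio rests on 17 and 2 UMIs (-2.06, -5.22 to 0.01). The other Cxcl12 ratio below 0 was in cluster 1 (-0.13, -0.62 to 0.37). Both intervals include 0, so a reversal of Cxcl12 between clusters was not shown. The clusters hold 2 to 20 cells per library and come from the same cells and genes as the ratios, so these values describe the cells and are no further evidence on the diet.

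**Figure D5:**
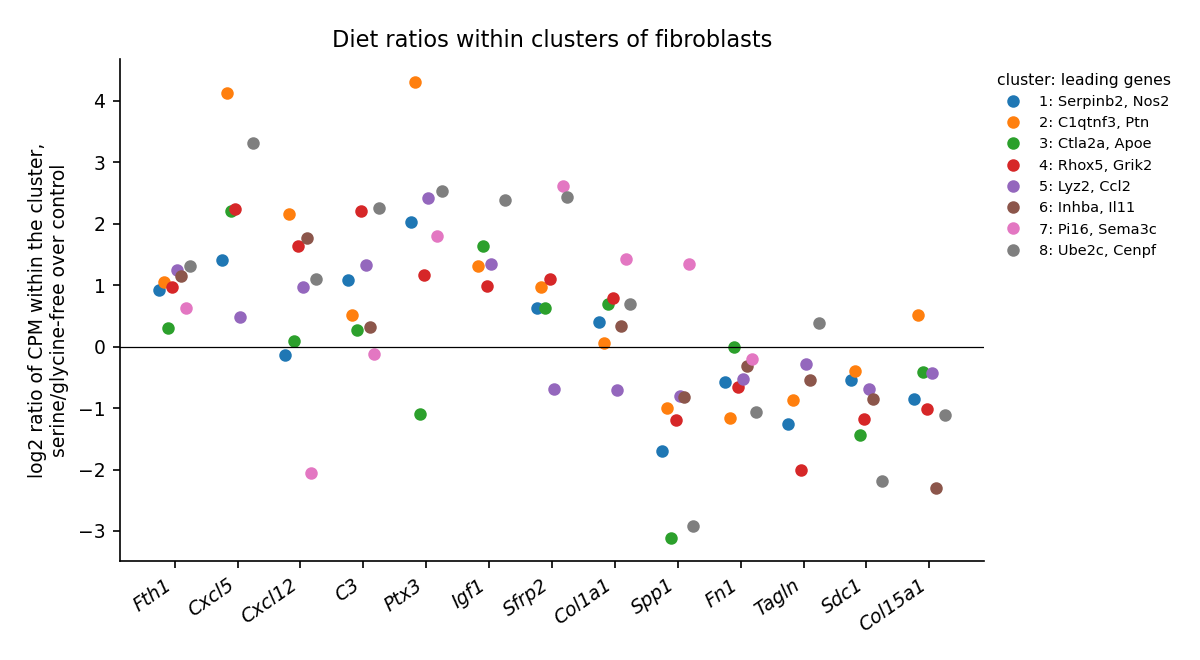
Log2 ratio of CPM, SG over CT, within each of 8 clusters of fibroblasts, for 13 genes. Each point is a cluster, named by its 2 leading genes, and is drawn where the gene had at least 10 UMIs in the cluster and UMIs in both libraries. Fth1 lay above 0 in 8 of 8 clusters and Fn1 below 0 in 8 of 8, while Cxcl12 and Spp1 had clusters on both sides. The lowest Cxcl12 point rests on 17 and 2 UMIs.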

How the data were processed

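The authors deposited 1 matrix of raw UMI counts per library (per the file headers, whole numbers from Cell Ranger 7.0.1; per the submitters' processing notes, Cell Ranger 2.2.2 and build mm10). The labels name the 10x Genomics 3' v2 kit. No source used here says whether introns were counted. The members and gene lists were chosen with earlier results of these data known.

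The 2 libraries held 14774 and 20662 barcodes and 173785388 and 173592046 UMIs. From the deposited counts, UMIs were summed over the fibroblasts or tumour cells of a library and divided by their total (CPM). Diet ratios carry exact conditional binomial intervals. With 1 library per diet no test was made and no p-value computed: called means 1.5-fold among genes with at least 100 UMIs, and 4-fold in both libraries against tumour cells. The intervals were tried on simulated counts drawn from pooled means, without variation between cells. That is the model they assume, so the simulation cannot show how they hold where few cells carry most UMIs of a gene.

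Named genes were the markers given for the cells, the sex-linked list, per list up to 6 members with the largest ratio whose interval excludes 0 plus well-known members, the 12 highest and 12 lowest diet ratios (at least 200 UMIs, detected in at least 20% of fibroblasts of the library where they are higher, lower in tumour cells), and the 20 highest and 10 lowest against tumour cells. Clusters used 1000 variable genes, 15 principal components, 10 neighbours and Leiden resolution 1 (scanpy 1.11.5, igraph 0.11.9). Doublets were marked with Scrublet and kept, and removed in an alternative. Coordinates are from GENCODE on GRCm38. Alternatives varied the membership rule, cell filters, scaling, pseudocount, low-count filter, cell weights and thinning depth. A few genes that the naming rule selects are not reported here.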

Additional observations from a re-analysis of the deposited data

Results flagged for a closer look

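The 10 genes given here were called 1.5-fold in one direction in fibroblasts and in the other direction in tumour cells of the same libraries. They are 4 of the 166 genes called higher in fibroblasts and 6 of the 111 called lower. Among all 2443 genes measured, tumour cells had 130 at least 1.5-fold higher and 57 at least 1.5-fold lower. Calls unrelated between the 2 cell types would give about as many opposite genes. With 1 library per diet the difference between the cell types was not tested, and intervals cover counting error only. Higher in serine/glycine-free fibroblasts and lower in tumour cells were Angpt1, an angiopoietin (difference of the log2 ratios 1.58, 0.93 to 2.23), the complement genes C2 (1.39, 0.84 to 1.94) and Serping1 (1.40, 1.24 to 1.57), and Igfbp3, an IGF-binding protein (1.62, 1.22 to 2.01). Serping1 had most UMIs of these, 581 and 799 in fibroblasts. Lower in fibroblasts and higher in tumour cells were Aspn, a proteoglycan (-1.75, -2.18 to -1.31), Cmah, a sialic acid hydroxylase (-3.11, -4.01 to -2.22), Csmd1 (-1.56, -2.26 to -0.85), Ddit4 (-1.97, -2.49 to -1.45), Ebf2 (-1.29, -2.19 to -0.39) and Xdh, xanthine dehydrogenase (-1.51, -1.95 to -1.08). Cmah and Ebf2 were under 1 CPM in tumour cells of both libraries, and 1 cell held 52.1% of the control UMIs of Csmd1. Ddit4 lost its direction in fibroblasts without a UMI of Hmga2 or Rhox5, where its ratio was 0.35. Aspn stood at the threshold in fibroblasts (-0.59) and fell short of it in 6 of 20 alternative settings (as near 0 as -0.52), with 32.0% of its SG UMIs in 1 cell. Ebf2 kept its call in 18 of 20 settings and Serping1 in 19 of 20.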

How the results depend on the processing

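No paired analysis was possible because each diet has 1 library, and for the same reason no library could be left out. The planned glycine and serine content of the encoded proteins was not run. The ratio of fibroblast shares stayed within its counting interval in every alternative. Counts of called genes followed the genes admitted: 408 higher and 285 lower with at least 50 UMIs, 72 and 42 with at least 200, and 2492 and 1772 with no filter. Genes higher in both cell types numbered 92, 35 and 246 in these settings, and genes lower in both 97 with no filter. A pseudocount of 10 CPM left 20 genes higher and 4 lower in both cell types, and 498 higher and 78 lower against tumour cells. With Hmga2 and Rhox5 under 20 per 10000 the genes lower against tumour cells were 110, and the medians of the interferon gamma and proliferation lists 0.53 and 1.02. Members without a UMI of either gene, a subset added after seeing the data, numbered 79 and gave 80 genes higher and 46 lower, 30 higher in both cell types and 359 lower against tumour cells. There the list medians were -0.31 for elastic fibre, 1.13 for chemokines, -0.047 for ATF4 targets and 0.47 for glycolysis and hypoxia, and the ratios were reversed for Col15a1 (0.21), Ddit4 (0.35), Il11 (2.66), Inhba (0.61), Itgbl1 (-1.04), Plin2 (0.0032), Spon1 (0.049) and Timp3 (0.078). Il11 was also reversed with the limit at 5 per 10000 (0.74), and the lipid list with at least 50 UMIs (-0.028). Clusters numbered 5 at resolution 0.5. The cause of these moves was not tested, beyond the genes or cells each setting removes. The depth of 721582 and 634623 UMIs limits the comparison to genes of about 70 CPM or more.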
